A study of Mus musculus with 17 samples.

Results

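Ion channel subunits are the membrane proteins that let potassium, sodium, calcium or chloride cross the membrane, with the proteins bound to them that tune them. They were represented by 88 probe sets of 68 genes among the 12488 probe sets of an oligonucleotide array. A probe set was a member if the platform annotation paired it with a single symbol that begins with Kcn, with Scn and a digit, or with Cacna, Cacnb, Cacng, Clcn or Hcn. The potassium class held 51 probe sets of 42 genes, the calcium class 13 of 12 genes, the chloride class 13 of 6 genes, the sodium class 8 of 6 genes, and the hyperpolarization-activated (HCN) class 3 of 2 genes. All 88 symbols matched the current RefSeq symbol of the same Entrez gene number.

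In neurons, sodium channels carry the upstroke of the action potential, potassium channels repolarize the membrane and hold it at rest, and calcium channels couple depolarization to transmitter release and gene expression. Each voltage-gated pore works with auxiliary subunits that set its delivery to the surface and its kinetics. Loss of blood flow depletes ATP, the sodium-potassium pump slows, neurons depolarize, and calcium enters through voltage-gated channels and glutamate receptors, a sequence central to the textbook account of stroke injury.

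RNA came from mouse brain tissue, white and grey matter supplied by the middle cerebral artery, and was hybridized to 17 arrays. Each of 12 arrays carried RNA pooled from 6 brains, with 3 pools per group: control pools given saline and AEOL control pools given AEOL 10150, both collected 6 h after the injection, and ischemia pools and ischemia AEOL pools, both subjected to 1 h of ischemia and sampled once blood flow had been back for 6 h. The other 5 arrays each carried 1 brain after ischemia, AEOL 10150 and reperfusion (single brains 11, 12, 13, 14 and 16). AEOL 10150 is a catalytic antioxidant and was given intravenously to the treated ischemic mice. The sources used here give no strain, sex, age or dose, and do not say whether untreated ischemic mice received a vehicle. Since nothing says how the brains were divided among the pools of a group, p-values measure only the spread between these arrays.

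Values below are log2 of array intensities brought to one scale, so 1 unit is a 2-fold change. Intensities below 109.5, the 25th percentile, were set to that floor, which is 6.77 in log2. On 10 arrays the deposited values had a common trimmed mean of 2500, and on the other 7, which were every single brain and ischemia AEOL pools 2 and 3, it was 129 to 210 before rescaling. RNA integrity, read from the 3'/5' ratio of the actin control probes, varied more among the pools (1.15 to 2.14) than among the single brains (1.38 to 1.60). The labels of 2 pools disagree within themselves: the description of AEOL control pool 1 has saline in place of the drug, and that of ischemia AEOL pool 1 names no drug. The ischemia response genes (such as Hspa1b, Fos and Atf3) were chosen with earlier results of these data known. They are thus no independent check of the ischemia labels. Group medians of their mean log2 levels were 9.67 and 9.76 in the pools without ischemia and 11.94 and 11.78 in those with it. Of 17 neuronal marker probe sets, 0 were at the floor on all arrays, and their mean level was 13.32 to 13.76 over the 17 arrays.

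Most channel probe sets read above the floor, which is a percentile of the intensities and not a test of detection. Of the 88 probe sets, 52 were above it on all 17 arrays, 27 on some, and 9 on none. Those at the floor throughout were Kcnc1, Kcnd1, Kcnj2, Kcnj5, Scn3a, Scn7a and 1 probe set each of Kcnj1 (103972_at), Kcnj15 (99974_at) and Scn8a (104505_at). The brightest potassium probe sets were Kcnma1, the large-conductance calcium-activated pore (13.98 to 14.58 over the 17 arrays), Kcna1, a low-threshold voltage-gated pore of axons (13.17 to 14.00), and Kcnab2, a cytoplasmic beta subunit (12.51 to 13.57). In the calcium class they were the auxiliary subunits Cacna2d3 (11.88 to 12.76), Cacna2d1 (11.46 to 12.93) and Cacng2 (11.55 to 12.44). A probe set was tested if 3 or more arrays exceeded the floor, which kept 72 of the members and left out 16.

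No channel subunit passed the test for an effect of ischemia in the pools. Over both drug arms (6 ischemic against 6 non-ischemic pools) 0 of 72 members had an adjusted p under 0.05 (limma, Benjamini-Hochberg), where 0.448% of all 10259 tested probe sets did. The counts were also 0 of 72 for ischemia without the drug (background 0.214%) and with it (0.0877%). At an unadjusted p under 0.05 there were 6, 4 and 6 members in these 3 comparisons, or 8.33%, 5.56% and 8.33% of the members against 4.92%, 4.12% and 3.44% of all probe sets.

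In 3 members, however, all 6 ischemic pools lay below all 6 non-ischemic pools: Kcna5, Kcnab1 and Cacna2d3. Such separation downward occurred in 0.283% of all tested probe sets. In the other direction it occurred in 0 members and in 0.829% of all probe sets.

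Kcna5 encodes a delayed-rectifier potassium pore. Its log2 levels (probe set 102295_at) were 10.42, 10.10 and 9.54 in control pools 1 to 3 and 10.23, 10.26 and 9.58 in the AEOL control pools. They were 9.26, 8.78 and 6.77 (the floor) in the ischemia pools and 8.43, 7.83 and 9.06 in the ischemia AEOL pools. Every ischemic pool was thus below the lowest non-ischemic one. The log2 difference was -1.66 (SE 0.41, 95% interval -2.58 to -0.75), with a limma adjusted p of 0.245. Its size depends on the floor, at which ischemia pool 3 lay: it was -1.07 with the floor at the 40th percentile (limma adjusted p = 0.0228) and -1.29 without that pool. It was -1.75 without the drug and -1.58 with it. Of the single brains, 11, 12, 14 and 16 (9.29, 8.99, 8.69 and 8.81) lay below every pool without ischemia, and brain 13 (9.58) was level with the lowest of them. A weak probe set of the same gene (161775_f_at, 6.77 to 8.48) differed by -0.27 (SE 0.36).

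Kcnab1 encodes a cytoplasmic beta subunit that binds Shaker-type pores such as Kcna5 and speeds their inactivation. Its levels (102725_at) were 11.70, 11.81 and 12.00 in the control pools and 12.12, 11.95 and 11.94 in the AEOL control pools, against 11.57, 11.44 and 11.42 in the ischemia pools and 11.34, 11.50 and 10.97 in the ischemia AEOL pools. All ischemic pools lay below 11.70, by small steps in the arm without the drug and larger ones in the arm with it. The log2 difference over both arms was -0.55 (SE 0.13, 95% interval -0.84 to -0.26; limma adjusted p = 0.218), -0.36 without the drug and -0.73 with it. A dimmer probe set (162087_f_at) differed by -0.20 (SE 0.36), and its groups overlapped.

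Cacna2d3 encodes an extracellular auxiliary subunit that helps calcium channels reach the surface. It read 12.66, 12.65 and 12.56 in the control pools and 12.53, 12.36 and 12.52 in the AEOL control pools. It read 12.07, 11.89 and 12.24 in the ischemia pools and 12.06, 11.95 and 12.16 in the ischemia AEOL pools. The nearest pools, at 12.36 without ischemia and 12.24 with it, were close. The log2 difference was -0.48 (SE 0.11, 95% interval -0.74 to -0.23), 1.40-fold lower, with a limma adjusted p of 0.206. The single brains were less uniform, at 12.26, 11.88, 12.76, 12.16 and 12.07, and brain 13 lay above every pool.

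**Figure D1:**
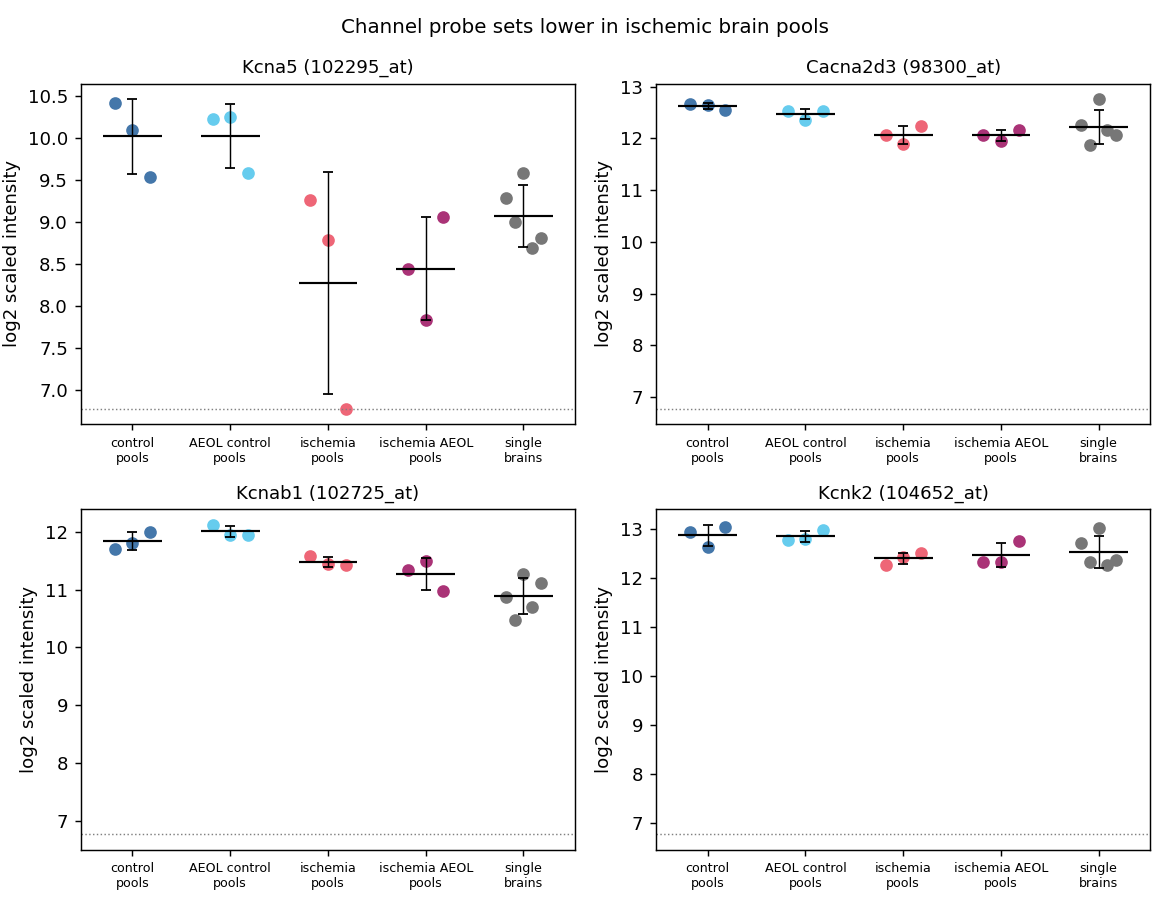
Log2 scaled intensity (y axis) of 4 probe sets in each of 17 arrays, by group (x axis); points are arrays, black lines are group means with SD bars, and the dotted line is the floor. In Kcna5, Cacna2d3 and Kcnab1 every ischemic pool lies below every pool without ischemia, whereas in Kcnk2 ischemia AEOL pool 3 (12.74) overlaps the controls.

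The promoters of these 3 genes, from RefSeq (GRCm38.p6), are shown because the genes lay lower in the same pools. Each runs from 250 bases before the annotated start to 50 after it, 5' to 3' on the gene's strand, and capitals mark GC boxes (GGGCGG, or CCGCCC on the other strand). Kcna5 is at chr6:126535506-126535805, minus strand; Cacna2d3 is at chr14:29721815-29722114, minus strand; the most upstream of 3 Kcnab1 entries is at chr3:64948962-64949261, plus strand.
Kcna5: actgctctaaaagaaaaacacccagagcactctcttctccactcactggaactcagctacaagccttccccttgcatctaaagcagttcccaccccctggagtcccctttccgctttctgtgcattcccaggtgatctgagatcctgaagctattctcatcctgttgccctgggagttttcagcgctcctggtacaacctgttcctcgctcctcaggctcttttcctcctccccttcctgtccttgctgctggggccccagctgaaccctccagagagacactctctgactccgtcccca
Cacna2d3: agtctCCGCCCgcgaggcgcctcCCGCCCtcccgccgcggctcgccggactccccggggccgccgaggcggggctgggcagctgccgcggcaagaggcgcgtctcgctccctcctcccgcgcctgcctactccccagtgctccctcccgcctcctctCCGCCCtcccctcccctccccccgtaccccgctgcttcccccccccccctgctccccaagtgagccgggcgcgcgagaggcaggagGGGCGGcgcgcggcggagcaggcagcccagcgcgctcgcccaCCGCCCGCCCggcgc
Kcnab1: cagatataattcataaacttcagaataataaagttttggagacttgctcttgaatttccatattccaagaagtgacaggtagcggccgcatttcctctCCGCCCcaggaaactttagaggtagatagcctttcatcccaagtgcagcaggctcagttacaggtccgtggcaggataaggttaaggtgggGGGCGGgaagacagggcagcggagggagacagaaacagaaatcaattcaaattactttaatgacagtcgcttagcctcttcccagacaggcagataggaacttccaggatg
They differ in composition, with 55.0%, 81.3% and 46.7% G and C. The Cacna2d3 window holds 6 GC box matches, 2 of them overlapping, the printed Kcnab1 window 2 and the Kcna5 window 0. The other Kcnab1 entries hold 0, with 50.3% and 36.7% G and C. None of the 3 holds the palindromic cyclic AMP response element TGACGTCA, which is found in 1.79% of the 32851 promoters of the table on either strand, and none holds TATAAA on its own strand (8.32% of all). Promoters were matched for 53 of the 68 channel genes (70 entries). Of these entries 35 of 70 held a GC box, against 35.7% of all, and the median share of G and C was 59.3% against 52.7%. The response element was found in entries of Clcn3 and Clcn4, and TATAAA in those of Clcn1, Clcn5 and Kcnj9.

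Among the other voltage-gated potassium pores, differences were small and of both signs. Kcna2, a pore of axons near the node, was at 9.02, 8.46 and 10.41 in control pools but at the floor in 5 of the other 9 pools, and its log2 difference of -0.62 (SE 0.55) was within that spread. Kcna1 differed by 0.07 (SE 0.18). Over the 16 tested probe sets of this subclass 9 were lower and the median was -0.04. Kcnab2 read 13.56, 12.95 and 13.18 in the control pools and 13.56, 13.39 and 13.22 in the AEOL control pools, against 13.21, 12.85 and 12.86 in the ischemia pools and 13.15, 12.51 and 13.57 in the ischemia AEOL pools. Its groups overlapped, with a log2 difference of -0.29 (SE 0.20). Of the 8 probe sets of potassium auxiliary subunits, 6 were lower, with a median of -0.16.

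Kcnk2 is a two-pore leak channel opened by stretch, acid and polyunsaturated fatty acids. It read 12.93, 12.62 and 13.04 in the control pools, 12.78, 12.78 and 12.98 in the AEOL control pools, 12.26, 12.42 and 12.49 in the ischemia pools, and 12.33, 12.31 and 12.74 in the ischemia AEOL pools. The arm without the drug showed no overlap, and in the other arm the groups were also apart. The log2 difference over both arms was -0.42 (SE 0.14; limma adjusted p = 0.544).

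The inward rectifiers divided. Kcnj4, a strong rectifier of forebrain neurons, read 11.68, 11.63 and 12.47 in control pools, 11.39, 12.09 and 12.40 in AEOL control pools, 10.88, 11.31 and 12.29 in ischemia pools and 11.20, 11.44 and 11.97 in ischemia AEOL pools. The groups overlapped and the log2 difference was -0.43 (SE 0.29). Kcnj3, a subunit of G protein-gated channels, differed by -0.56 (SE 0.47). The subunits of ATP-sensitive channels, which open when ATP falls, differed by -0.14 (Kcnj11, SE 0.48) and -0.13 (Kcnj8, SE 0.28), so neither showed a change beyond its error.

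Kcnj9, another G protein-gated subunit, gave unlike values from its probe sets. On 161799_r_at it read 8.68, 6.77 and 6.77 in the control pools and 8.12, 6.77 and 9.27 in the AEOL control pools, against 7.80, 9.87 and 8.47 in the ischemia pools and 9.61, 9.56 and 11.29 in the ischemia AEOL pools. The groups overlapped without the drug and did not with it. The log2 difference over both arms was 1.70 (SE 0.57; limma adjusted p = 0.645) and depends on the floor, at which 3 of the 6 non-ischemic pools lay. On 98332_at, at 9.99 to 11.18 over the 17 arrays, the difference was 0.01 (SE 0.20).

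In the calcium class, pore subunits other than the skeletal muscle type differed by less than their errors allow to separate. Cacna1c, the dihydropyridine-sensitive pore of neurons and heart, read 10.74, 10.82 and 11.85 in control pools, 11.66, 11.15 and 11.63 in AEOL control pools, 10.36, 11.13 and 11.59 in ischemia pools and 11.48, 10.08 and 10.96 in ischemia AEOL pools (log2 difference -0.37, SE 0.31). The low-threshold pore Cacna1g differed by 0.29 (SE 0.36). Among auxiliary subunits, Cacna2d1, the gabapentin-binding subunit, differed by -0.21 (SE 0.29), and Cacnb2, a cytoplasmic beta subunit, by -0.35 (SE 0.39). Of 5 auxiliary probe sets 4 were lower, with a median of -0.21.

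Cacna1s, the calcium pore of skeletal muscle, was at or near the floor in all non-ischemic pools (highest 7.09). It read 6.84, 8.98 and 6.77 in the ischemia pools and 6.77, 8.94 and 9.18 in the ischemia AEOL pools, so 3 ischemic pools carried a clear signal and 3 were at or near the floor. The difference of 1.09 (SE 0.48; limma adjusted p = 0.972) rests on those arrays. Of 5 tested probe sets of skeletal and heart muscle markers 3 were higher and 2 lower, with a median log2 difference of 0.00 over both arms, 0.24 without the drug and -0.34 with it, and their mean level was 7.38 to 7.91 in the pools without ischemia and 7.43 to 7.95 in those with it. Their part in the Cacna1s values was not tested.

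All 4 tested sodium pore probe sets lay lower in ischemia, and 0 passed. Scn1a, the pore of fast-spiking interneurons, read 13.42, 13.59 and 12.77 in the control pools and 13.28, 13.31 and 13.03 in the AEOL control pools. It read 13.37, 13.23 and 12.56 in the ischemia pools and 12.96, 12.98 and 12.79 in the ischemia AEOL pools. The difference was -0.25 (SE 0.19) on this probe set (162255_s_at) and -0.18 (SE 0.19) on 94201_at. Within same-numbered pools both Scn1a probe sets were lower after ischemia in 6 of 6 pairs, and with the number as a block the limma adjusted p was 0.649 and 0.768. This was counted after the values were seen. It held for 8 of 72 members (3.25% of all probe sets): these 2, Kcna5, Kcnab1, Cacna2d3, Kcnk1, Kcnk2 and Kcnj4. Scn8a, the pore of nodes and the axon initial segment, differed by -0.10 (SE 0.19). Scn10a, a pore of sensory neurons, was at the floor in 9 of 12 pools (-0.25, SE 0.28).

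Members of the chloride class found in endosomes and lysosomes differed by small amounts. The brightest, Clcn3, read 13.63 to 14.34 over the 12 pools on 102786_at. On another Clcn3 probe set (94465_g_at) the control pools read 13.04, 13.08 and 13.04 and the ischemia pools 13.00, 12.82 and 12.84, without overlap, and the difference over both arms was -0.11 (SE 0.11). Clcn4 differed by -0.13 (SE 0.11) and Clcn7 by -0.23 (SE 0.22). The plasma membrane channel Clcn2 read 7.84, 7.28 and 6.77 in the control pools and 8.13, 7.88 and 8.88 in the ischemia pools, the one member higher without overlap in the arm without the drug (4.07% of all probe sets). With the drug it read 8.08, 7.69 and 8.02 before and 8.48, 8.66 and 7.24 after ischemia, and overlapped. Its difference over both arms was 0.60 (SE 0.30; limma adjusted p = 1.00).

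The pacemaker channels, which open on hyperpolarization, gave 0.10 (SE 0.18) for Hcn3, and 0.09 (SE 0.18) and -0.02 (SE 0.23) for the Hcn2 probe sets. The sign of the last turned under several settings.

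By class, the median log2 difference over both arms was -0.13 for potassium (26 of 41 lower), -0.08 for calcium (9 of 12), -0.21 for sodium (4 of 4), -0.04 for chloride (7 of 12) and 0.09 for HCN channels (1 of 3). Over all tested probe sets the median was 0.01, and 47.5% were lower. For the channels together it was -0.11, with 47 of 72 lower (65.3%). Other scalings of the arrays kept these signs (49 of 71 lower with quantile normalization, 50 of 71 with array medians at one level), but they are descriptions of small shifts. The potassium median became 0.01 without ischemia pool 2, the calcium median 0.03 without that pool and 0.06 without ischemia AEOL pool 2, and the chloride median 0.02 without ischemia pool 3 and 0.00 without ischemia AEOL pool 3. With the 2 scale sets as a block the calcium median was 0.03 and the chloride median 0.01.

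**Figure D2:**
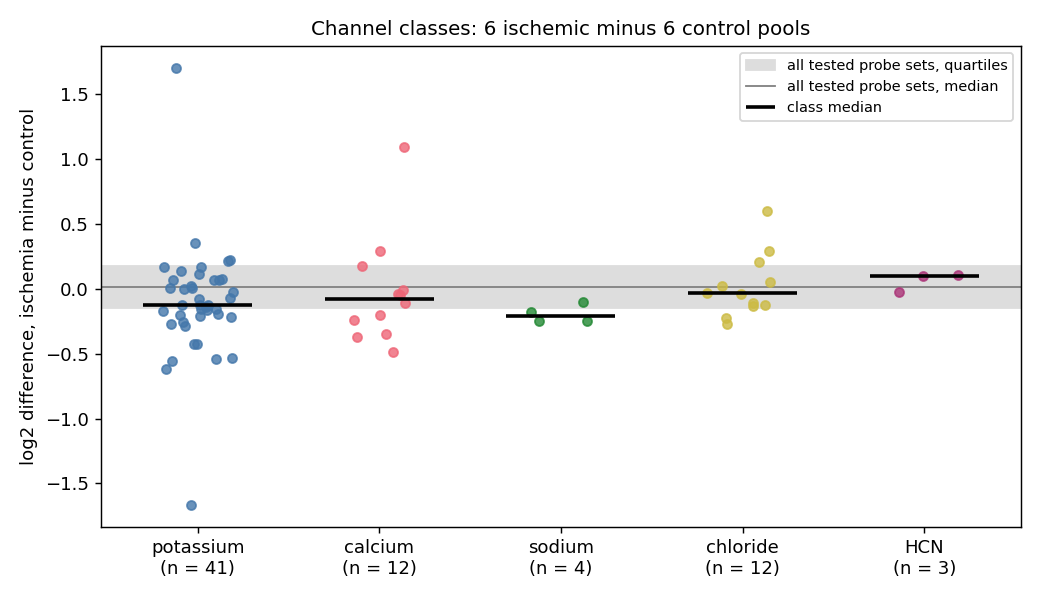
Log2 difference between ischemic and non-ischemic pools (y axis) of the 72 tested probe sets by channel class (x axis); points are probe sets, black lines class medians, and the grey band the quartiles of all 10259 tested probe sets. The class medians lie between -0.21 and 0.09, and the low point of the potassium class is Kcna5 at -1.66.

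The arms with and without the drug, which share no arrays, differed in the share of channels lying lower. Without the drug 37 of 72 members were lower after ischemia (median -0.05, all probe sets 0.03), and with it 53 of 72 (median -0.18, all probe sets -0.02). With quantile normalization the counts were 42 and 53 of 71, and with array medians at one level 48 and 51 of 71. The gap between the arms was thus smaller under both scalings, and smallest with array medians at one level. In both arms 28 members were lower and 10 higher, and 9 and 25 had opposite signs. The calcium medians were -0.06 and -0.36, and the inward rectifier medians 0.24 and -0.37. The difference between the arms had a median of -0.09 over the members, and 0 of 72 passed the test of that interaction (background 0%), with 1 member and 2.08% of all probe sets at an unadjusted p under 0.05.

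Groups that did not overlap within an arm were more frequent among the members downward than upward. Without the drug 5 members were lower (background 3%): Kcna5, Kcnab1, Cacna2d3, Kcnk2 and Clcn3. With the drug 7 were lower (3.64%): the first 4 of these with Kcnj1, Scn1a and Kcnab2 (162182_f_at), and 1 was higher (3.75%), Kcnj9.

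**Figure D3:**
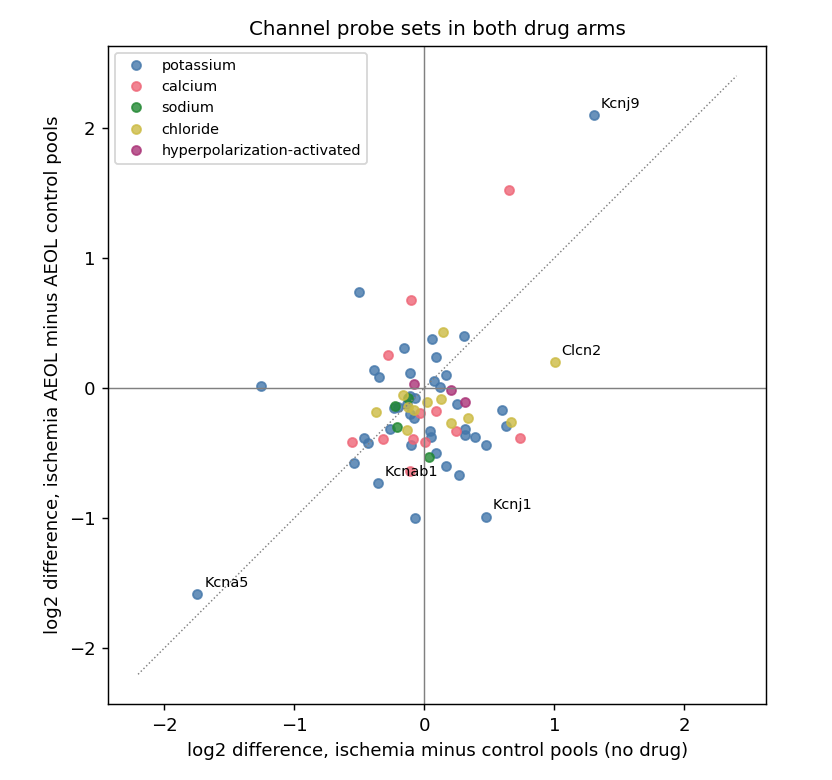
Log2 difference after ischemia without AEOL 10150 (x axis) and with it (y axis) for 72 channel probe sets coloured by class; the dotted line marks equal values. Of the points, 28 lie in the lower left and 10 in the upper right part, with Kcna5 farthest to the lower left.

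The effect of AEOL 10150 itself was looked for in both tissues. After ischemia 0 of 72 members passed (background 0.00975%), and 0 had an unadjusted p under 0.05, against 1.47% of all probe sets. The lowest p belonged to Kcnj12, a strong inward rectifier, at 8.09, 8.96 and 8.66 in the ischemia pools and 7.59, 7.54 and 8.05 in the ischemia AEOL pools. These do not overlap, as in 2.11% of all probe sets in this direction, and the log2 difference was -0.84 (SE 0.39; limma adjusted p = 1). Kcnd2, the dendritic A-type pore, was at 10.25, 10.07 and 10.51 and then 9.70, 9.78 and 9.61, also without overlap, on 98364_at. In the other direction 0 members were without overlap (1.72% of all). The other Kcnd2 probe set (99339_r_at) read 11.37, 11.62 and 10.76 and then 11.03, 11.37 and 10.75, with overlap.

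Without ischemia 0 of 72 passed (background 0.00975%) and 2 had an unadjusted p under 0.05 (2.57% of all probe sets). Kcnj1, known best as the potassium secretory channel of the kidney, read 6.77, 6.77 and 7.49 in the control pools and 8.34, 8.28 and 8.35 in the AEOL control pools. It then read 6.83, 8.25 and 7.39 in the ischemia pools and 7.50, 7.74 and 6.77 in the ischemia AEOL pools, and 6.77 in all single brains. The AEOL control pools were the highest and closest together, though all values are low; Kcnj1 was the one member higher without overlap (2.73% of all probe sets), and 3 were lower (1.92%). The log2 difference for the drug without ischemia was 1.31 (SE 0.38; limma adjusted p = 1), and the interaction was -1.46 (SE 0.53; adjusted p = 1.00). Kcna2 differed by -1.97 (SE 0.78), with 2 of 3 AEOL control pools at the floor. Cacna1h, a low-threshold calcium pore, differed by 0.69 (SE 0.34). For this comparison 49 of 72 members were higher with a median of 0.11 (all probe sets 0.03), but with array medians at one level 35 of 71 were lower. The actin 3'/5' ratio was 1.65, 1.33 and 1.19 in the control pools and 1.97, 2.14 and 1.15 in the AEOL control pools, and its part in these values was not tested.

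The single brains gave the calls that passed. Against the AEOL control pools 4 of 72 members passed (limma, Benjamini-Hochberg; background 3.21%), and 15 had an unadjusted p under 0.05, or 20.8% against 23.6% of all probe sets. The share of members called was thus near the background. All single brains belong to the arrays deposited on the other scale, and the AEOL control and ischemia pools do not. Against the AEOL control pools, single-brain status, scale set and ischemia cannot be told apart. Against the ischemia pools, single-brain status, scale set and the drug cannot be told apart.

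Kcnab1 was the called member that also separated the pools. In single brains 11, 12, 13, 14 and 16 it read 10.87, 10.48, 11.27, 10.70 and 11.11, all below every AEOL control pool and every ischemia pool. It fell by 1.12 on the log2 scale from the AEOL control pools (SE 0.18, 2.17-fold lower; limma adjusted p = 0.0127). The call held in each alternative run on this contrast, with limma adjusted p from 0.0060 to 0.0493. The blocks and the groups from descriptions were not among these. Against the ischemia pools the difference was -0.59 (SE 0.18; limma adjusted p = 0.119). Its dimmer probe set (162087_f_at) read 8.91, 7.01, 8.74, 8.52 and 8.16 in the single brains and differed by -1.14 from the AEOL control pools (SE 0.44; limma adjusted p = 0.160).

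Kcnq1, the slow delayed-rectifier pore of heart and inner ear, read 9.79, 9.53, 9.76, 9.84 and 10.08 in the single brains on 161796_r_at and 10.83, 10.96 and 11.54 in the AEOL control pools. It fell by 1.31 (SE 0.25, 2.48-fold lower; limma adjusted p = 0.0249). However, control pools 1 and 2, given saline, lay at 9.75 and 9.02, as low as the single brains. The ischemia AEOL pools, which had the drug and ischemia as the single brains did, did not all lie low. Their scaled intensities before log2 were 2228, 1949 and 1010, against 1825, 1988 and 2978 in the AEOL control pools and 741 to 1082 in the single brains. The call was lost without AEOL control pool 3 (limma adjusted p = 0.0937) and without single brain 11, 12, 13 or 14 (0.0518 to 0.0568). A second probe set (99322_at) was at the floor on 15 of 17 arrays.

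Kcnj1, at the floor in all single brains, was at least 2.93-fold lower than in the AEOL control pools (limma adjusted p = 0.0127). Without AEOL control pool 3 the limma adjusted p was 0.0560. The size depends on the floor: with a lower floor of 20 the log2 difference was -2.77 (limma adjusted p = 0.0437). With the floor at the 40th percentile (458.4) every array was at the floor, so Kcnj1 was not tested. The lack of spread among the single brains is set by the floor. Since control pools 1 and 2 were also at the floor, the contrast rests on the AEOL control pools.

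Kcnj9 was the one member past the threshold in both single-brain contrasts. On 161799_r_at the single brains read 11.32, 11.90, 11.60, 11.46 and 10.87, above all pools except ischemia AEOL pool 3 at 11.29. It rose by 3.37 from the AEOL control pools (SE 0.57; limma adjusted p = 0.0137). Since 1 of these pools was at the floor, the size depends on it: the difference was 4.19 with a lower floor of 20 (limma adjusted p = 0.0626) and 2.45 with the floor at the 40th percentile (0.000931). Against the ischemia pools, where the drug, single-brain status and scale set cannot be told apart, 1 of 72 members passed (background 1.37%). It was this probe set, by 2.72 (SE 0.57, 6.57-fold; limma adjusted p = 0.0497). That call was lost without AEOL control pool 1, ischemia pool 1 or 3, or any one of the single brains (limma adjusted p 0.0603 to 0.107), and without ischemia pool 1 the member called was Kcnj1 instead (-1.04, adjusted p = 0.0458). The other Kcnj9 probe set (98332_at) read 10.73, 10.82, 10.60, 11.18 and 10.89 in the single brains, within the range of the pools, so the 2 probe sets of the gene disagree.

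Among members that did not pass, Cacng2, a relative of the calcium channel gamma subunit that carries AMPA receptors to synapses, read 12.26, 12.18, 12.44, 12.35 and 12.44 in the single brains. It read 11.94, 11.55 and 11.81 in the AEOL control pools and 12.01, 11.77 and 11.77 in the ischemia pools, below all single brains. The differences were 0.57 (SE 0.14; limma adjusted p = 0.0580) and 0.48 (SE 0.14; 0.111). Against the AEOL control pools it passed in 5 of the alternatives: array medians at one level (0.0498), the floor at the 40th percentile (0.0333), no filter (0.0267), a variance trend (0.0360) and without ischemia pool 3 (0.0440). Saline control pools 1 and 2, at 12.40 and 12.17, reached the level of the single brains. Kcnk4, a two-pore channel related to Kcnk2, read 11.27, 9.95, 11.47, 10.11 and 11.71 in the single brains, all below the AEOL control pools at 11.91, 11.81 and 12.63 (log2 difference -1.21, SE 0.44; limma adjusted p = 0.137). Kcnk4 is named here after its values were seen.

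**Figure D4:**
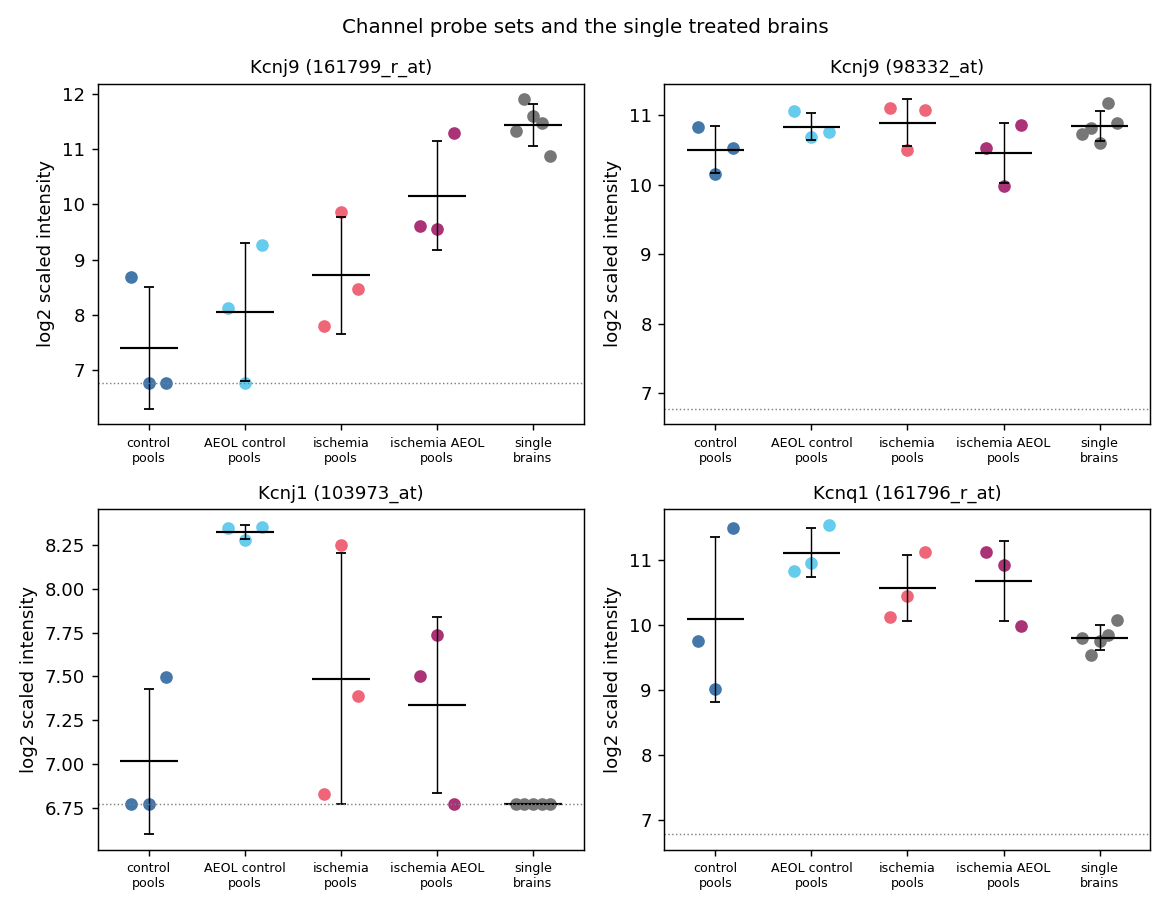
Log2 scaled intensity (y axis) of both Kcnj9 probe sets, Kcnj1 and Kcnq1 in each array by group (x axis); points are arrays, black lines group means with SD bars, and the dotted line the floor at 6.77. Single brains are high on Kcnj9 161799_r_at (10.87 to 11.90) but not on 98332_at, all at the floor for Kcnj1, and for Kcnq1 level with control pools 1 and 2.

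The single brains were closer together than the pools. The median SD over the members was 0.30 in single brains, against 0.49, 0.45, 0.48 and 0.45 in the control, AEOL control, ischemia and ischemia AEOL pools, and over all probe sets it was 0.23 against 0.40, 0.36, 0.39 and 0.34. Single brains differ from most pools in scale set and from all pools in brains per array, and the part of these in the SDs was not tested. The members that varied most between brains switched between signal and floor. Kcnk7, a two-pore subunit, read 7.59, 9.47, 9.90, 9.95 and 6.77. Kcnn1, a small-conductance calcium-activated channel, read 9.78, 9.59, 9.87 and 9.86 in the first 4 and 6.77 in brain 16. Clcn1, the chloride channel of skeletal muscle, read 9.21, 6.77, 9.18, 8.50 and 6.77 on 95376_at.

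For many channels the number in a pool's title went with larger differences than its treatment did. Replicate number held a median of 39.9% of the variance over the 12 pools in the members and treatment group 17.1%, against 31.6% and 18.8% over all probe sets. The number's share was the larger in 51 of 72 members (70.8%) and in 62.7% of all probe sets. By class the number's median share was 39.0% for potassium, 31.3% for calcium, 42.5% for sodium and 70.0% for chloride channels. What the number stands for is not given in the sources used here. The members described next were chosen after their values were seen.

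Cacna1a, the P/Q-type pore that triggers transmitter release, had the largest share, 96.0%. It read 11.59, 9.02 and 10.95 in control pools 1 to 3, 11.55, 9.58 and 10.95 in the AEOL control pools, 11.16, 9.27 and 10.87 in the ischemia pools, and 11.35, 8.87 and 10.69 in the ischemia AEOL pools. Pool 2 was the lowest of every group, by 1.96 on average. The single brains read 10.64 to 11.22, near pools 1 and 3. Its partner at the terminal, the N-type pore Cacna1b, was lower in pools 2 by 1.24, with 9.81, 10.39, 10.15 and 10.43 in those 4 pools and 10.84 to 12.16 in the others. The ischemia difference of Cacna1a over both arms was -0.24 (SE 0.61).

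Kcna6, a Shaker-type pore, was also lowest in pool 2 of every group. It read 6.77, 7.11, 7.68 and 8.26 in the 4 pools numbered 2, and 9.28 to 10.24 in the other 8. Kcna3, a related pore, read 8.06, 9.01, 7.42 and 9.08 in pools 2 and 9.71 to 10.74 in the others. Clcn5, an endosomal chloride exchanger, ran the opposite way on 101913_at, with 11.05, 10.30, 10.93 and 10.80 in pools 2 and values from 8.99 up, all under those of pools 2, in the others. Its other probe set (161451_r_at) did not show this, with 9.26, 10.70, 10.55 and 10.50 in pools 2 and 9.82 to 11.18 in the others. Over the 72 members the median difference of pools 2 from the rest was -0.23, with 47 lower, against -0.04 over all probe sets. Neither of the RNA quality ratios set pools 2 wholly apart from the other 8. The GAPDH 3'/5' ratio was highest in pool 2 of every group, at 1.158, 1.555, 1.322 and 1.199 in the control, AEOL control, ischemia and ischemia AEOL pools, against 0.903 to 1.189 in the other 8. In the ischemia AEOL group it was close to that of pool 3 (1.189), which was above the ratio of control pool 2. The actin 3'/5' ratio of pools 2 was 1.33, 2.14, 1.53 and 1.29 in the same order, and 2.14 is the highest of the 17 arrays. In pools 1 it was 1.648, 1.975, 1.696 and 1.68, above pool 2 in every group but the AEOL controls. The part of these ratios in the channel values was not tested. Of the 4 pools, ischemia AEOL pool 2 alone belongs to the other scale set. Without these 4 pools 0 members passed in any pool contrast, and over both ischemia arms 2 of all probe sets did.

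**Figure D5:**
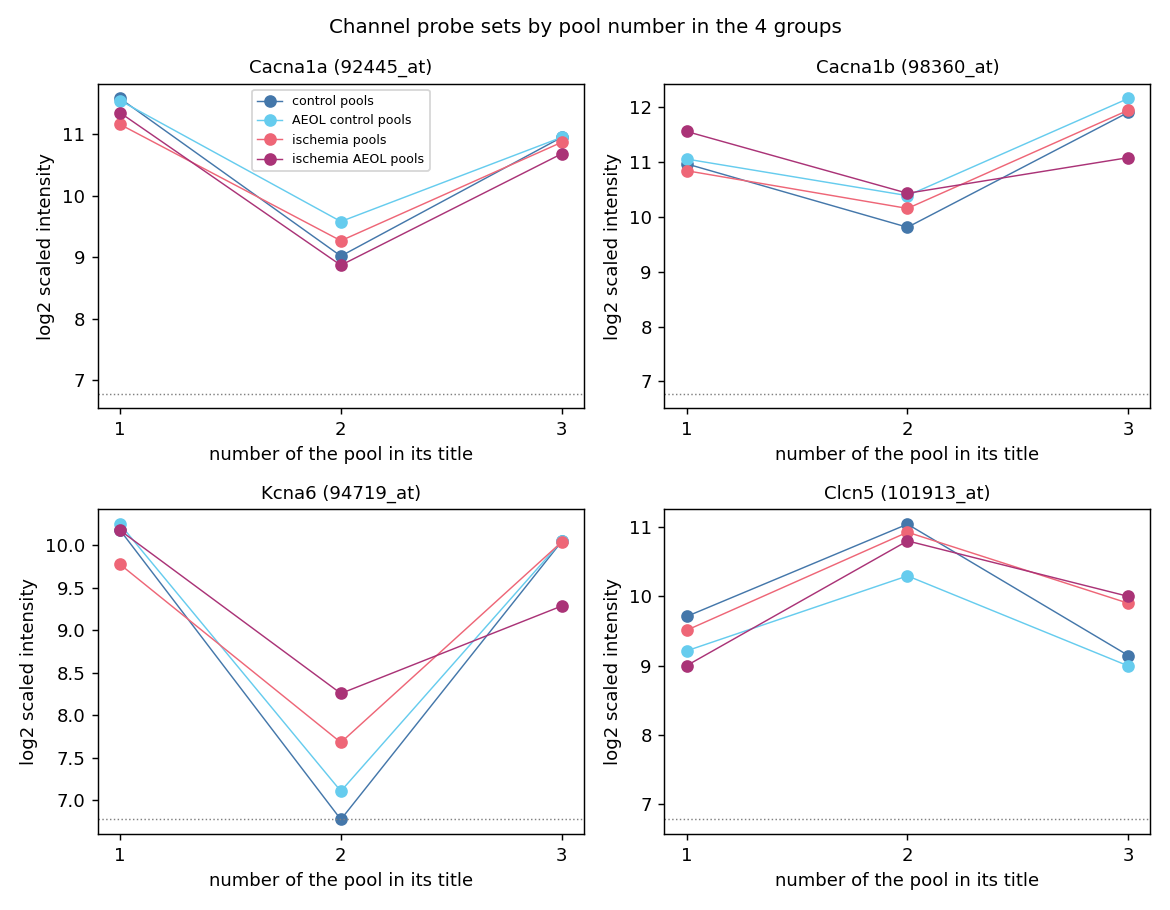
Log2 scaled intensity (y axis) of Cacna1a, Cacna1b, Kcna6 and Clcn5 (101913_at) by the number in the pool's title (x axis), one line per group; the dotted line is the floor. In all 4 groups pool 2 is the lowest for Cacna1a (8.87 to 9.58) and Kcna6 (6.77 to 8.26) and the highest for Clcn5 (10.30 to 11.05).

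Of genes that work with channels (pumps, exchangers, intracellular calcium channels, scaffolds and other ion carriers), 45 were on the array with 55 tested probe sets. Over both ischemia arms 19 were higher and 36 lower (median -0.08), and 0 passed; 1 had an unadjusted p under 0.05, Clic4 (94254_at), an intracellular chloride channel protein, higher by 0.50 (SE 0.18; limma adjusted p = 0.790). In the single brains against AEOL control pools 2 of 54 passed, near the background of 3.21%. Clic4 rose by 1.09 (SE 0.18; limma adjusted p = 0.0119), although its other probe sets gave 0.24 and 0.29. Nedd4l, a ubiquitin ligase that removes sodium channels from the membrane, fell by 0.82 (SE 0.16; limma adjusted p = 0.0278; 103906_f_at), and -0.65 was measured on its other probe set.

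Neuronal markers were lower by a median of 0.07 in ischemic pools (12 of 17 lower, 0 passed). Markers of striatal neurons were also lower in ischemic pools in 6 of 7 probe sets, with a median of -0.54, and 0 passed. Rasgrp2 (-1.05) and Drd2 (-0.88) had the largest differences of the 7, and a Penk probe set (161164_r_at) was higher by 0.05. The mean level of the striatal markers was 10.82 to 11.21 in pools without ischemia, 10.23 to 10.62 in ischemic pools and 9.95 to 10.78 in single brains. Of the 7, 0 were at the floor on all arrays. Their part in the values of Kcna5, Kcnab1 and Cacna2d3 was not tested, and fewer cells of a type and less RNA per cell cannot be told apart in such samples.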

How the data were processed

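Each array came with a linear intensity for every probe set, as deposited by the authors. How these were summarised and scaled is not stated in the sources read, and 15.2% to 19.3% of an array's values were below 0. Each array was scaled to a mean of 2500 between its 2nd and 98th percentiles, set to a floor at 109.5 and put on the log2 scale, which compresses differences near the floor. Control probe sets (66) were left out. The tests used limma 3.58.1 (R 4.3.3), fitted across all tested probe sets: the 12 pools together (10259 probe sets, 8 residual and 2.23 prior degrees of freedom), and the single brains with the AEOL control and ischemia pools (10227 probe sets). Benjamini-Hochberg adjustment ran over all tested probe sets of a comparison, with a threshold of 0.05, and tests are two-sided. The fit was first tested on simulated data with large known changes and no effect of the pool number. That run does not bear on small differences such as those of most channels.

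Groups came from sample titles, and single brains from descriptions. The members and lists were chosen with earlier results of these data known. Named members are those past the threshold, the smallest p-values of each class over both ischemia arms (8 potassium, 6 calcium, 4 sodium, 4 chloride, all HCN), the 3 smallest p-values of every other contrast, the 3 brightest of each class and the 3 with the largest SD over single brains. Of the array's probe sets, 10855 carry 1 symbol, 396 several and 1237 none. Pool numbers were not taken as pairs, and the fit with a replicate block is an alternative. Other alternatives were 2 scalings, 2 floors, no filter, a trend in the variance, the scale set as a block, groups from descriptions and leaving arrays out. Promoters were read with Python 3.11.15. The GC box search and the setting without the pools numbered 2 were added after the data were seen. Read depth has no counterpart on arrays; their number limits the precision.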

Additional observations from a re-analysis of the deposited data

Results flagged for a closer look

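Of 39 named probe sets, those with any spread over the 5 single brains were checked for a value standing apart, and 2 had one. The usual rate of about 1 in 20 does not hold here. Kcnn1 was named for its large SD over these same brains, and its low value is the floor. Scn8a (104504_at) read 12.13 in single brain 13 and 11.29 to 11.39 in the other brains, a gap of 0.875 of the range. Kcnn1 (97100_at) was at the floor of 6.77 in single brain 16 and read 9.59 to 9.87 in the other brains, a gap of 0.908 of the range.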

How the results depend on the processing

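Most values kept their sign and their side of the threshold. Over both ischemia arms the count of members past the threshold, 0 as reported, was 1 with a floor at the 40th percentile (Kcna5, -1.07, limma adjusted p = 0.0228) and 1 with no filter on low values (Cacna2d3, -0.48, limma adjusted p = 0.0195). With a replicate block it was 0 in every pool contrast, and the block changed no call of a member; over all probe sets the block gave 35 calls in place of 22 without the drug, 12 in place of 9 with it and 65 in place of 46 over both arms. Deviations of same-numbered pools correlated at 0.332 to 0.571 among the control, AEOL control and ischemia groups, but at -0.335 to 0.401 with ischemia AEOL pools, pool 3 being below 0 with each, so the numbers were not shown to pair all 4 groups. For the single brains against ischemia pools the count of 1 became 0 with a lower floor and 0 with no filter, and ran from 0 to 1 with one array left out; against AEOL control pools it ran from 2 to 6. The chloride median, -0.04, ran from -0.11 (without ischemia pool 1) to 0.02 (0.0206, without ischemia pool 3). Cacnb2 turned to 0.01 (0.0092) with the scale set as a block. Hcn2 (94194_s_at) turned to 0.02 (0.0159) with groups from the descriptions and to 0.03 (0.0281) without both pools with unlike labels, and ran from -0.17 to 0.10 with one array left out. With array medians at one level the median of all probe sets moved by -0.12 (ischemia without the drug), -0.10 (drug without ischemia), 0.14 (interaction, where 32 of 71 members were then lower in place of 45 of 72) and 0.11 (single brains against ischemia pools). The causes were not tested. Probe sets near the floor, such as Kcnj1, Kcna2 and Cacna1s, are limited by signal over background.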

Other observations

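Marker lists of the cell types in such tissue gave these values over both ischemia arms, as median log2 differences of their tested probe sets. Oligodendrocyte markers had 10 of 11 higher (0.23), astrocyte markers 10 of 14 (0.12), microglial markers 7 of 10 (0.13), endothelial markers 8 of 11 (0.31) and choroid plexus markers 5 of 6 (0.33), and 0 of each list passed the threshold. Neutrophil markers had 8 of 9 higher (0.55), of which 1 passed, and both erythroid probe sets were higher (0.70). GABA interneuron markers had 4 of 7 higher (0.02), and cerebellar markers 4 of 6 lower (-0.03). The ischemia response genes, a list chosen with earlier results of these data known, were higher in 16 of 16, by 2.03, and 14 passed (limma, Benjamini-Hochberg).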
